A study of Mus musculus with 4 samples.

Results

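The genes under study are 5 best known from brain or synapses, Bcan, Cbln3, Negr1, Shisa6 and Ppp2r2c, followed in mouse testes that lack the receptor for luteinizing hormone. They were chosen by their array signals, which were high in the knockout testes of these same samples, so their difference between the genotypes is described here and not tested. The 5 are among 19938 genes with a probe set of their own on the arrays, and each is read by 1 probe set, namely 10499285 for Bcan, 10420209 for Cbln3, 10497051 for Negr1, 10387100 for Shisa6 and 10521471 for Ppp2r2c. The tested testes came from Lhcgr KO mice (n = 2 samples) and the others from control WT mice (n = 2). All 4 samples were whole testes of male mice given busulfan, which is toxic to dividing germ cells and spares most somatic cells, at 44 mg/kg, and taken 4 weeks later. Strain, age, the design of the Lhcgr allele and whether a sample is 1 animal are not stated in the labels, so spreads and p-values cover these samples only and may be technical. Total RNA was read on 1-colour Affymetrix whole-transcript arrays, and signals are given as deposited intensity or its log2.

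Each of the 5 genes has a textbook role in the nervous system. Bcan encodes brevican, a chondroitin sulfate proteoglycan of the lectican family that binds hyaluronan in the brain matrix and the nets around neurons. Cbln3 encodes a cerebellin, a secreted protein with a C1q domain made by granule cells of the cerebellum, where it assembles with cerebellin 1. Negr1 encodes a cell adhesion molecule of the IgLON family held to the neuron surface by a lipid anchor. Shisa6 encodes a membrane protein that accompanies AMPA-type glutamate receptors at synapses, and in the mouse testis it has been described in undifferentiated spermatogonia. Ppp2r2c encodes a regulatory B subunit of protein phosphatase 2A (PP2A) that is abundant in brain.

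RefSeq promoter windows were found for 4 of the 5 genes and are shown because the genes were high in the same testes. Each runs 5′ to 3′ on the gene's strand, from 250 bases before the annotated start to 50 bases after it, 300 bases in all, on build GRCm38.p6. Capitals mark CpG dinucleotides. The windows are chr3:88000307-88000606 on the minus strand for Bcan, chr14:55884207-55884506 on the minus strand for Cbln3, chr3:156561544-156561843 on the plus strand for Negr1 and chr5:36868260-36868559 on the plus strand for Ppp2r2c.
Bcan: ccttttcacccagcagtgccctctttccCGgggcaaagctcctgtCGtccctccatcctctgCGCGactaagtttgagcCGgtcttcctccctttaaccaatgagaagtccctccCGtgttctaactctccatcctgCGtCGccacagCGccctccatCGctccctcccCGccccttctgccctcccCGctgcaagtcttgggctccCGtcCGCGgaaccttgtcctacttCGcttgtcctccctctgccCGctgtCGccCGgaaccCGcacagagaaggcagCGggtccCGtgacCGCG
Cbln3: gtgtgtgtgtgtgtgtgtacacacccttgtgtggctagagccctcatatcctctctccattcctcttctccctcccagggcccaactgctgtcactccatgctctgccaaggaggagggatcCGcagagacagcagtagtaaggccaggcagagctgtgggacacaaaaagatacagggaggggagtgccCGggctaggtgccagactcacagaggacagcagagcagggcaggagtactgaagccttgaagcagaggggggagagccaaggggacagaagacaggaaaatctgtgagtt
Negr1: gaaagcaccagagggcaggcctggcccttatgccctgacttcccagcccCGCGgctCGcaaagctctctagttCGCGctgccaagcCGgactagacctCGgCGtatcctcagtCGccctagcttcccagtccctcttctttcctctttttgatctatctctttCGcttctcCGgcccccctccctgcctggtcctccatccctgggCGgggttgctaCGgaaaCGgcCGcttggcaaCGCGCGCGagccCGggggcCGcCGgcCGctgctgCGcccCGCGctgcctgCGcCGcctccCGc
Ppp2r2c: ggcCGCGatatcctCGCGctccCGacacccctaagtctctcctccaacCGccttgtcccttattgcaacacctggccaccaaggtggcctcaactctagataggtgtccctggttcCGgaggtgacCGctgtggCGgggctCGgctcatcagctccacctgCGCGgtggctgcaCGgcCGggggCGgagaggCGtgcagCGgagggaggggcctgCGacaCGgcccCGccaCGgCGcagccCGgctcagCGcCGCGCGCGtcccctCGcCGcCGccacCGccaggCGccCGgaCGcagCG
The 4 windows were unlike each other in base composition. Cbln3 had 2 CpGs, against a median of 7 over 32851 promoter windows, and 14.1% of all windows had fewer. The Bcan window had 24 CpGs, that of Negr1 29 and that of Ppp2r2c 36, and 80.0%, 87.1% and 93.8% of all windows had fewer. A GC box (GGGCGG, searched on both strands like every motif here) lay in those 3 windows and not in that of Cbln3. It occurs in 35.7% of all windows. The cyclic AMP response element TGACGTCA, present in 1.79% of all windows, and the SF-1 site CAAGGTCA, present in 1.56%, were in none of the 4. Neither the left part of the neural silencer element RE1 (TTCAGCACC, in 0.371% of all windows) nor its right part (GGACAGCGC, in 0.405%) was found in them, and neither was TATAAA (13.6%) or the E-box CAGCTG (16.3%). The androgen receptor half-site AGAACA (19.0% of all windows), which is only a part of a full site, and the CCAAT box (37.4%) each occurred once, both in the Bcan window. No searched motif was shared by all 4.

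Markers of somatic cells, most of which busulfan spares, were read in the testis samples. No detection calls were used, so these values alone do not settle which cells were present. The Sertoli cell genes Sox9 and Wt1 lay between 2807 and 3285 intensity units in KO testes and between 2612 and 3160 in WT testes. Of 12 measured Sertoli cell markers 1 was called higher and 0 lower (limma, Benjamini-Hochberg adjusted p under 0.05), beside 0.963% and 2.14% of all genes. It was Amh (0.80 ± 0.14 SE, adjusted p = 0.0398), named after its values were seen. Both KO arrays lay above both WT arrays in 7 and below in 2 (36.8% and 22.4% of all genes). The myoid cell genes Acta2 and Myh11 ran from 941 to 5297 in KO and from 694 to 3938 in WT. Of 6 measured myoid markers 0 were called, with a median log2 difference of -0.28, against 0.07 over all genes. Both KO arrays lay above both WT arrays in 2 and below in 3 (36.8% and 22.4% of all genes). The endothelial genes Pecam1 and Cdh5 ran from 145 to 1203 in KO and from 155 to 926 in WT. Of 6 endothelial markers 1 was called higher and 0 lower, beside 0.963% and 2.14% of all genes. It was Sox18 (1.02 ± 0.14 SE, adjusted p = 0.0181), named after its values were seen. The Leydig cell genes Star and Cyp11a1 lay between 433 and 887 in KO against 1397 to 2616 in WT. Of 10 measured Leydig cell markers 6 fell, beside 2.14% of all genes (limma, Benjamini-Hochberg adjusted p under 0.05), and 4 were not called. Both KO arrays lay below both WT arrays in 8, against 22.4% of all genes. The median log2 intensity of the 10 was 11.25 in WT replicate 1 and 10.09 in WT replicate 2. In these WT samples Sult1e1 read 1985 and 282, and Hsd3b6 4745 and 5123. Both were named after their values were seen. Of 6 macrophage markers 3 fell, beside 2.14% of all genes, with Csf1r and Cd68 between 353 and 371 in KO against 658 to 806 in WT. Both KO arrays lay below both WT arrays in 6 of the 6, against 22.4% of all genes. With each array left out, the log2 difference ran from -1.61 to -1.21 for Star and from -2.06 to -1.52 for Cyp11a1. That of Csf1r ran from -1.15 to -0.88 and that of Cd68 from -1.01 to -0.88. The calls of these genes were lost with a KO array left out and kept with a WT array left out. WT replicate 2 stood apart by epididymis genes. Adam7 read 60.4 and 51.2 in KO testes, against 58.5 and 2101 in WT testes, Lcn5 read 113 and 110 in KO against 91.7 and 480 in WT, and 5 of 13 measured epididymis markers were over 1 log2 unit above all other arrays there. Values for Lhcgr itself are not analysed here, so the labels were not checked on it. In whole testis, fewer cells of a type and less RNA per cell cannot be told apart. The part of these cell type differences in the values below was not tested.

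The secreted matrix and signalling genes come first. Bcan read 1125 and 1196 intensity units in the KO testes, against 369 and 176 in the WT testes. The KO samples were nearly equal, at a ratio of 1.06, while the WT samples differed 2.10-fold, and the groups did not overlap. On the log2 scale the means were 10.18 ± 0.06 in KO and 7.99 ± 0.76 in WT (SD, n = 2 each), a difference of 2.19 or 4.55-fold. The WT array with the epididymis genes, which also had the lower median of Leydig cell markers, is the lower one for Bcan. Without that array the log2 difference was 1.65, and without WT replicate 1 it was 2.72.

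Cbln3 read 598 and 510 intensity units in KO testes, against 115 and 132 in WT testes. Both pairs were close, and the lower KO sample was 3.87 times the higher WT sample, the widest gap among the 5 genes. The log2 means were 9.11 ± 0.16 in KO and 6.94 ± 0.14 in WT (SD, n = 2 each), a difference of 2.17 or 4.49-fold. With each array left out in turn the difference stayed between 2.05 and 2.28.

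Of the surface proteins, the adhesion molecule Negr1 read 1548 and 2094 intensity units in KO testes, against 433 and 495 in WT testes. Both KO samples were over 3 times the higher WT sample, with a ratio of 3.12 for the lower one. The log2 means were 10.81 ± 0.31 in KO and 8.86 ± 0.14 in WT (SD, n = 2 each), a difference of 1.96 or 3.89-fold.

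Shisa6, the glutamate receptor companion, read 873 and 605 intensity units in KO testes, against 194 and 218 in WT testes. The KO samples differed 1.44-fold and the WT samples 1.12-fold, with no overlap. Its log2 means were 9.50 ± 0.37 in KO and 7.69 ± 0.12 in WT (SD, n = 2 each), a difference of 1.82 or 3.53-fold, the smallest of the 5. Of 10 measured germ cell markers 0 were called (limma, adjusted p under 0.05), with a median log2 difference of 0.16. Both KO arrays lay above both WT arrays in 2 and below in 1 (36.8% and 22.4% of all genes). Whether germ cells carried the Shisa6 signal was not tested. The first 2 markers of the list are genes of undifferentiated spermatogonia, in which Shisa6 has been described. Zbtb16, a transcription factor of these cells, read 334 and 106 in KO testes against 513 and 419 in WT (limma log2 difference -1.30 ± 0.47 SE, adjusted p = 0.183). The KO samples differed, and the log2 difference was -2.13 without KO replicate 1 and -0.48 without KO replicate 2. Gfra1, the receptor subunit for GDNF, read 182 and 186 in KO against 166 and 195 in WT (0.04 ± 0.13, adjusted p = 0.873), and its sign turned after quantile normalization.

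Inside the cell, the phosphatase subunit Ppp2r2c read 332 and 1077 intensity units in KO testes, against 74.8 and 101 in WT testes. The KO samples differed 3.24-fold from each other, nearly as much as the 3.29-fold between the lower KO sample and the higher WT sample. Log2 means were 9.22 ± 1.2 in KO and 6.44 ± 0.30 in WT (SD, n = 2 each), a difference of 2.78 or 6.89-fold, the largest of the 5 and the one with the widest spread. Without KO replicate 2 the difference was 1.93, and without KO replicate 1 it was 3.63. The RefSeq annotation places 3 long non-coding RNA genes over Ppp2r2c, among them one named Ppp2r2cos, and 2 each of long non-coding genes over Shisa6 and small RNA genes over Negr1. Whether the probe sets read them too is not known here.

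**Figure D1:**
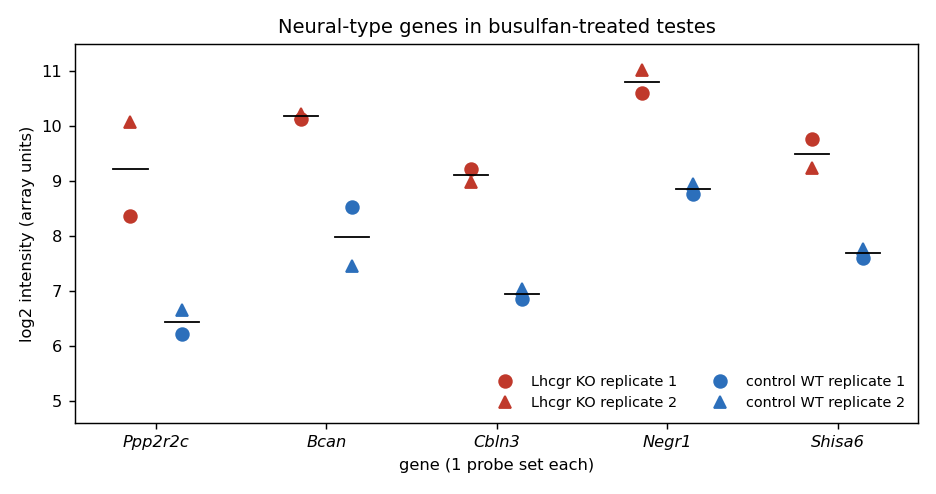
Log2 intensity of the 5 genes on each array, with Lhcgr KO samples (red) left of control WT samples (blue), circles for replicate 1, triangles for replicate 2 and black bars for group means of 2 samples. Every KO point lies above both WT points of its gene, and Ppp2r2c shows the widest KO pair (10.07 and 8.37) and Bcan the widest WT pair (8.53 and 7.46).

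In all 5 genes both KO arrays were above both WT arrays, as their choice for high KO values implies. The same held for 36.8% of all genes tested. The 5 had a median log2 difference of 2.17, against 0.07 over all genes. Within the groups the order of the samples differed between the genes. KO replicate 2 was the higher KO sample for Ppp2r2c, Negr1 and Bcan, by 1.70, 0.44 and 0.09 log2 units, and KO replicate 1 was the higher for Shisa6 and Cbln3, with KO replicate 2 minus replicate 1 at -0.53 and -0.23. WT replicate 2 was above WT replicate 1 for 4 of the genes and below it for Bcan.

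**Figure D2:**
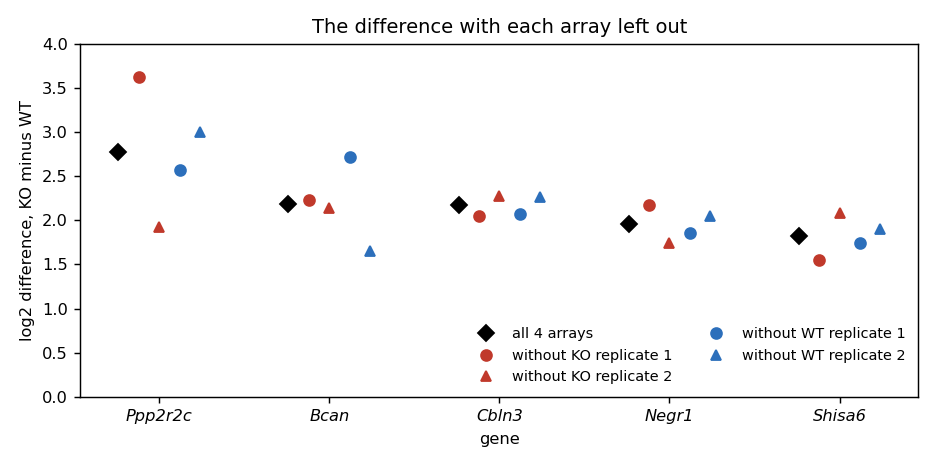
Log2 difference, Lhcgr KO minus control WT, of the 5 genes from all 4 arrays (black diamonds) and with 1 array left out (red for a KO array, blue for a WT array, circles for replicate 1 and triangles for replicate 2). The points span 1.93 to 3.63 for Ppp2r2c, 1.65 to 2.72 for Bcan and 2.05 to 2.28 for Cbln3.

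The pattern over the 4 arrays was compared with that of every other gene by the Euclidean distance between log2 profiles centred on their own means, a description that uses the same contrast that chose the genes. Cbln3 and Shisa6 were the closest pair among the 5, at 0.41 log2 units, and Ppp2r2c and Shisa6 the farthest, at 1.86. The gene nearest to Cbln3 was Sfrp4, a secreted Wnt modulator, at 0.19, followed by Ahsg, a plasma glycoprotein also called fetuin-A, at 0.23 and then Shisa6. Sfrp4 read 514 and 397 intensity units in KO testes against 106 and 106 in WT testes. Nearest to Shisa6 were Prss12, a secreted serine protease also known as neurotrypsin, at 0.30, then Sfrp4 at 0.32 and the insulin gene Ins2 at 0.39. Prss12 read 800 and 609 in KO against 237 and 236 in WT, the same order of the KO pair as Shisa6.

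Negr1 was nearest to Mapk13, a p38-type kinase, at 0.36, to the Wnt ligand Wnt5a at 0.40 and to Ahsg at 0.42. For Bcan the nearest genes were the ketone body enzyme Bdh1 at 0.52, Wnt5a at 0.60 and the heparan sulfate sulfotransferase Hs6st2 at 0.64. Hs6st2 had unequal WT samples in the same order as Bcan, with 434 and 547 intensity units in KO against 226 and 117 in WT. Ppp2r2c had no close match, with Acsl6, an acyl-CoA synthetase, at 0.90, Negr1 at 1.23 and Ahsg at 1.46. Acsl6 read 755 and 1113 in KO testes against 154 and 202 in WT testes.

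Relatives and binding partners of the 5 genes were listed by family and function, with earlier results of these data known, and were tested in the fit over all genes. None of 76 measured relatives out of 80 listed passed the test in either direction (limma on log2 intensity, Benjamini-Hochberg adjustment over 19938 genes), where 0.963% of all genes were called higher and 2.14% lower. At an unadjusted p under 0.05, 13 of the 76 relatives were higher and 5 lower. Among all 19938 genes 2567 were higher and 1949 lower, or 22.7% in either direction. An eBayes fit with an intensity trend called none either. The median log2 difference of the relatives was 0.10, and both KO arrays lay above both WT arrays in 30 of them (39.5%, against 36.8% of all genes) and below in 13 (17.1%, against 22.4%). The other 4 were not analysed here. On the 4 arrays the median log2 intensity of the relatives was 7.44 to 7.52, against 7.8 to 7.83 over all genes. It was 6.52 to 6.82 for the list of lecticans and hyaluronan matrix. No detection calls were used, so a dim gene without a call is not shown to be unchanged.

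The closest paralogs of each gene are given whatever their values, beyond the rule for named genes. Among 15 measured paralogs none was called, with log2 differences between -0.33 and 0.50 and a highest upper 95% confidence bound of 1.01, that of Shisa7. These are intervals of single genes from the limma fit.

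In the PP2A enzyme, a scaffold and a catalytic subunit join 1 of many regulatory subunits. Of 18 measured subunits and partners 0 were called, and log2 differences had a median of -0.06, which became 0.02 after quantile normalization. The paralog Ppp2r2a, a widely expressed B subunit, read 713 and 702 intensity units in KO testes against 833 and 874 in WT testes (-0.27 ± 0.11 SE, adjusted p = 0.213). Ppp2r2b, the other B subunit known mainly from brain, read 277 and 337 in KO against 286 and 227 in WT (0.26 ± 0.16, adjusted p = 0.351), and its groups overlapped. Ppp2r2d read 822 and 787 in KO against 803 and 814 in WT (adjusted p = 0.972), with overlap. Both KO arrays lay below both WT arrays for 8 of the 18 (44.4%, against 22.4% of all genes) and above for 0 (against 36.8%).

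Lecticans are the core proteoglycans of hyaluronan-based matrix, and link proteins of the Hapln family tie them to it. Of 18 measured genes of this matrix 0 were called, with a median log2 difference of 0.19, or 0.06 after quantile normalization. Acan, aggrecan of cartilage, read 81.5 and 82.3 intensity units in KO testes against 104 and 102 in WT testes (-0.33 ± 0.11 SE, adjusted p = 0.160). Vcan, the widely expressed versican, read 122 and 119 in KO against 94.1 and 131 in WT (0.12 ± 0.17, adjusted p = 0.686). Ncan, the brain lectican neurocan, read 126 and 146 in KO against 130 and 126 in WT (0.08 ± 0.12, adjusted p = 0.706, with the sign turned after quantile normalization). The lowest p of the list belonged to Ptprz1, a receptor phosphatase of glia, with 120 and 92.9 in KO against 71.7 and 75.3 in WT (0.52 ± 0.15, adjusted p = 0.125).

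Cerebellins are secreted organisers that bridge the sides of a synapse. Of 13 measured genes of this group 0 were called, with a median log2 difference of 0.15. Cbln1, the partner with which Cbln3 assembles, read 92.8 and 97.8 intensity units in KO testes against 79.0 and 67.2 in WT testes (0.39 ± 0.13 SE, adjusted p = 0.158). Its KO samples were both above its WT samples. Cbln2 read 121 and 153 in KO against 96.5 and 95.8 in WT (0.50 ± 0.14, adjusted p = 0.123), the lowest p of the list. Cbln4 read 133 and 140 in KO against 211 and 124 in WT (-0.25 ± 0.24, adjusted p = 0.528). The receptors measured, Grid1, Nrxn2, Nrxn3, Adgrb3, Dcc and Neo1, had log2 differences of 0.04, 0.19, 0.12, 0.28, 0.15 and 0.24 in that order. Their limma adjusted p ran from 0.274 to 0.86, and they were named after their values were seen.

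IgLON proteins pair with each other between cell surfaces. None of the 4 other members was called, with a median log2 difference of 0.28. Lsamp came nearest, with 178 and 168 intensity units in KO testes against 127 and 123 in WT testes (0.47 ± 0.11 SE, adjusted p = 0.0857). Iglon5 read 119 and 155 in KO against 103 and 95.5 in WT (0.46 ± 0.15, adjusted p = 0.161). In both, the KO samples lay above the WT samples. Ntm and Opcml overlapped between groups, with log2 differences of 0.11 and 0.06 (adjusted p = 0.683 and 0.797), and the sign for Opcml turned after quantile normalization.

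Shisa proteins of this branch sit beside AMPA receptors, which are built from Gria subunits. Of 23 measured genes 0 were called, with a median log2 difference of 0.13. Shisa9 read 207 and 236 intensity units in KO testes against 198 and 200 in WT testes (0.15 ± 0.12 SE, adjusted p = 0.45). Shisa7 read 271 and 431 in KO against 381 and 213 in WT (0.26 ± 0.31, adjusted p = 0.614), and its groups overlapped. Shisal1, a Shisa-like gene, had the lowest p, with 157 and 164 in KO against 120 and 107 in WT (0.50 ± 0.12, adjusted p = 0.0857). Log2 differences of the subunits Gria1 to Gria4 were 0.13, 0.17, -0.20 and 0.07 in that order of number (adjusted p from 0.397 to 0.743), and these 4 were named after their values were seen.

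**Figure D3:**
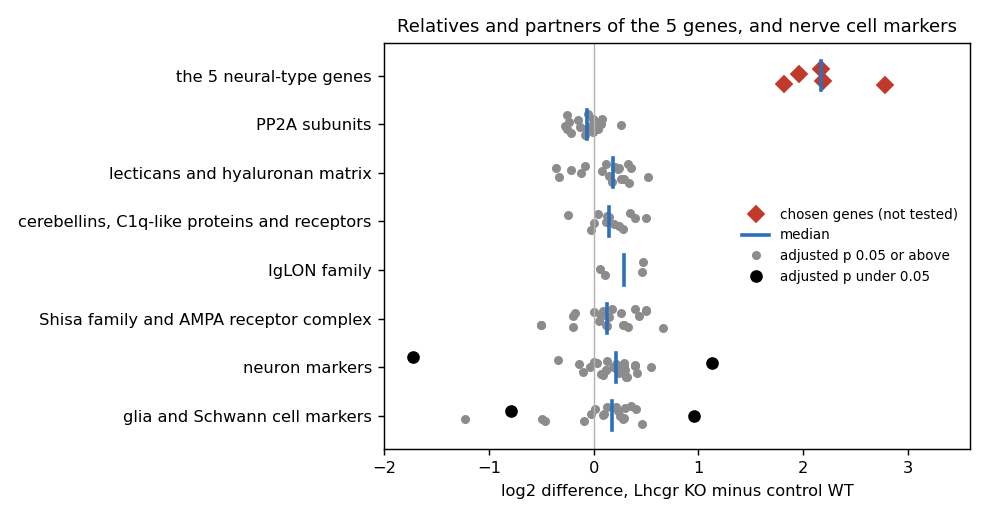
Log2 difference, Lhcgr KO minus control WT, of the 5 chosen genes (red diamonds) and of each measured gene in the lists of relatives and of nerve cell markers (grey, or black where limma adjusted p was under 0.05), with list medians in blue. The 5 chosen genes lie between 1.82 and 2.78, the 76 relatives lie between -0.50 and 0.66, and 4 nerve cell markers passed the test.

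The name neural-type was checked against markers of the cells of nervous tissue. Of 29 measured neuron markers, 1 was called higher and 1 lower, beside 0.963% and 2.14% of all genes. Both passing genes act in the release of synaptic vesicles. Syt1, the calcium sensor synaptotagmin, read 255 and 277 intensity units in KO testes against 116 and 128 in WT testes, and rose (1.13 ± 0.12 SE, adjusted p = 0.0081). Snap25, a SNARE protein, read 65.9 and 77.8 in KO against 268 and 211 in WT, and fell (-1.73 ± 0.16, adjusted p = 0.00529). Each pair was well apart with no overlap. With each array left out, the log2 difference ran from 1.05 to 1.20 for Syt1 and from -1.91 to -1.56 for Snap25. Both calls were kept with a WT array left out. They were lost with a KO array left out, as were most calls among all genes. Such fits assume that the single sample left in a group varies like the other group.

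The defining neuron markers did not pass. Rbfox3, a nuclear protein of mature neurons, read 288 and 303 intensity units in KO testes against 304 and 330 in WT testes (-0.10 ± 0.11 SE, adjusted p = 0.592). Map2, a microtubule protein of dendrites, read 281 and 257 in KO against 209 and 162 in WT (0.55 ± 0.15, adjusted p = 0.117). The list had a median log2 difference of 0.21, against 0.07 for all genes. It was 0.09 after quantile normalization, against 0.03 for all genes, and 0.08 without WT replicate 2, against 0.05. Both KO arrays lay above both WT arrays for 14 of the 29 (48.3%, against 36.8% of all genes) and below for 3 (10.3%, against 22.4%). At an unadjusted limma p under 0.05, 9 of the 29 were higher and 2 lower. Among all 19938 genes 2567 were higher and 1949 lower, or 22.7% in either direction.

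Markers of glia and of Schwann cells, the sheath cells of peripheral nerve, gave a similar picture. Of 20 measured, Olig1 rose and Cnp fell, beside 0.963% and 2.14% of all genes, and 18 did not pass. Both KO arrays lay above both WT arrays for 11 of the 20 (55.0%, against 36.8% of all genes) and below for 2 (against 22.4%). At an unadjusted limma p under 0.05, 6 of the 20 were higher and 2 lower, against 22.7% of all genes in either direction. Olig1, a transcription factor of oligodendrocyte precursors, read 365 and 321 intensity units in KO testes against 157 and 197 in WT testes (0.96 ± 0.15 SE, adjusted p = 0.0261). Cnp, a myelin enzyme that other cells also make, read 364 and 294 in KO against 574 and 556 in WT (-0.79 ± 0.14, adjusted p = 0.036). Among Schwann cell genes, Sox10, S100b and Ngfr had log2 differences of 0.36, 0.30 and 0.40 in that order. Their limma adjusted p was 0.142, 0.193 and 0.165, and both KO arrays lay above both WT arrays in each. Erbb3 and Cdh19 had -0.49 and -0.47 (adjusted p = 0.339 and 0.346), with overlap. These Schwann cell genes were named after their values were seen, and none passed. The defining astrocyte genes Gfap and Aqp4 lay between 129 and 153 in KO and between 114 and 131 in WT (log2 differences 0.13 and 0.29, adjusted p = 0.515 and 0.216). Aldh1l1, a folate enzyme also used as an astrocyte marker and named after its values were seen, had the largest difference of the list, with 289 and 285 in KO against 917 and 498 in WT (-1.23 ± 0.26 SE, adjusted p = 0.0668), and did not pass. Its WT samples differed, and it passed without WT replicate 1 (-0.79, adjusted p = 0.0225), without WT replicate 2 (-1.68, adjusted p = 0.000644) and with the replicate block (adjusted p = 0.0457). The list median was 0.17, or 0.07 after quantile normalization, against 0.07 and 0.03 for all genes. With each array left out, the log2 difference ran from 0.80 to 1.13 for Olig1 and from -0.94 to -0.63 for Cnp. Both calls were lost with a KO array left out and kept with a WT array left out. Without WT replicate 1 the list counted 4 genes lower, and without WT replicate 2 it counted 2.

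Genes next to the 5 on the chromosomes were compared to see whether a whole stretch was high. The 5 genes lie on chromosomes 3 (Bcan and Negr1), 5 (Ppp2r2c), 11 (Shisa6) and 14 (Cbln3). Of 20 neighbours, 4 per gene, 1 was called higher and 0 lower, beside 0.963% and 2.14% of all genes, with log2 differences between -0.50 and 0.59. An unadjusted p under 0.05 was reached by 7 of them, against 22.7% of all genes. The called one was Nynrin, next to Cbln3, which read 514 and 483 intensity units in KO testes against 342 and 320 in WT testes (0.59 ± 0.11 SE, adjusted p = 0.0487). Its other probe sets had log2 differences of 0.57 and 0.45. The call was lost after median centring (adjusted p = 0.0531), with probe sets averaged (0.0753) and with any array left out (0.0579 to 0.219). Khnyn, on the other side of Cbln3 and related to Nynrin, had a log2 difference of 0.35 ± 0.13 (adjusted p = 0.199).

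Beside Bcan lie Hapln2, which encodes a brain link protein of the same matrix, and Nes, the intermediate filament nestin of neural precursors. Hapln2 read 121 and 134 intensity units in KO testes against 105 and 116 in WT testes (0.20 ± 0.12 SE, adjusted p = 0.333). Nes read 101 and 80.5 in KO against 94.3 and 149 in WT (-0.40 ± 0.23, adjusted p = 0.323). The next genes out, Crabp2 and Gpatch4, had log2 differences of 0.17 and -0.19. Around Ppp2r2c, Mrfap1, Man2b2, Wfs1 and Jakmip1 had 0.01, -0.44, -0.16 and 0.22 in chromosomal order, with adjusted p from 0.147 to 0.974. Around Negr1, the values of Fpgt, Lrriq3, Zranb2 and Mir186 were -0.08, -0.06, 0.02 and 0.07. Those of Zkscan6, Dnah9, Gm12298 and Pirt around Shisa6 were -0.37, -0.50, 0.37 and 0.34, none past the test. Nfatc4 and Sdr39u1, the outer neighbours of Cbln3, had 0.07 and -0.13. Small differences changed sign under some settings, which are listed with the processing.

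**Figure D4:**
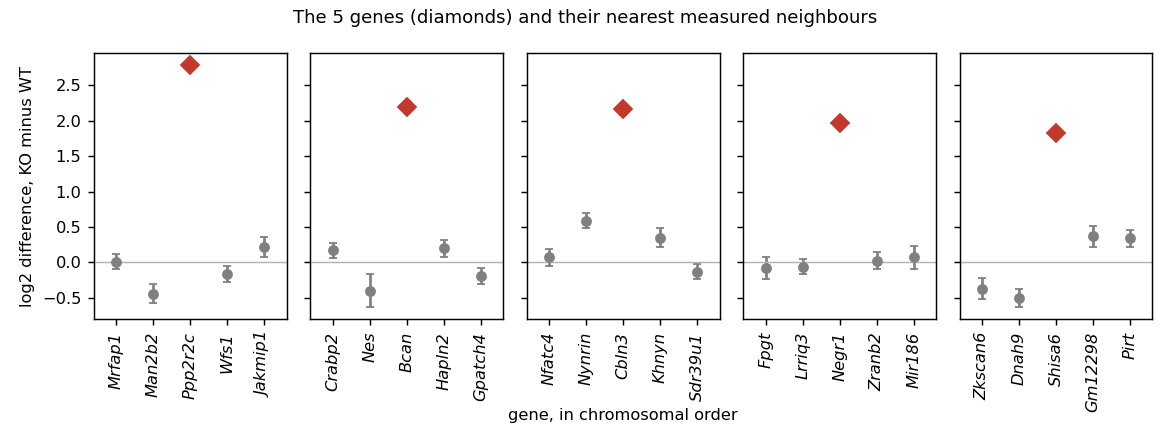
Log2 difference, Lhcgr KO minus control WT, of each of the 5 genes (red diamonds) and of the 2 nearest measured genes on either side (grey, bars are SE of the limma fit), 1 panel per gene in chromosomal order. The neighbours lie between -0.50 and 0.59, and the 5 genes between 1.82 and 2.78.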

How the data were processed

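The values deposited by the authors are linear intensities, 1 for each probe set on each of 4 arrays. Per the labels' protocols, total RNA was converted to sense-strand cDNA and labelled with biotin. Build mm9 is named per the submitters' processing notes, while no source used here gives the summarization, background correction or normalization. The lowest intensity was 16.0 on each array and medians ran from 198 to 215. No detection calls were used. Fold changes of dim genes may be understated.

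Of 28856 probe sets, 21789 have 1 gene symbol, 1621 several and 5446 none listed, in an annotation that can be old. The first kind stands for 19938 genes, of which 19856 matched RefSeq on GRCm38.p6 by Entrez number. A gene's probe set with the highest mean was used. RefSeq served for names, gene order and promoters only, as its build differs from mm9.

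Log2 intensities were fitted with limma 3.58.1 in R 4.3.3 (lmFit, eBayes), with two-sided p-values adjusted by Benjamini-Hochberg at 0.05. The fit was also run on simulated independent genes with variances drawn from its own prior. Such a run cannot show how the fit performs on uneven samples. The array number limits precision. The 5 genes and all lists were chosen with earlier results of these data known. Genes were named by a rule: the 5 genes, up to 6 passing genes per list or else the lowest p, the first markers of each cell type, 2 neighbours on each side and the 3 nearest patterns. Alternatives are given with their effects in the closing section.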

Additional observations from a re-analysis of the deposited data

How the results depend on the processing

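The differences of the 5 genes kept their sign under all 11 alternatives, and without an array they ran from 1.93 to 3.63 for Ppp2r2c, 1.65 to 2.72 for Bcan, 2.05 to 2.28 for Cbln3, 1.74 to 2.18 for Negr1 and 1.55 to 2.08 for Shisa6. Adding 32 to each intensity before log2 compresses low values by construction, and all 5 differences were smaller then. They were 2.42 for Ppp2r2c, 2.04 for Bcan, 1.91 for Cbln3, 1.89 for Negr1 and 1.67 for Shisa6. The relatives gave 0 calls in both directions under every alternative. Leaving out an array, which leaves 1 sample in a group that is assumed to vary like the other group, gave 0 to 2 neuron markers higher and 0 to 1 lower, 0 to 1 glia and Schwann cell markers higher and 0 to 4 lower, and 2 to 313 genes higher and 16 to 726 lower among all genes. The replicate block, which uses the labels' replicate numbers, gave 2 glia and Schwann cell markers lower against 1 without it, and 173 genes higher and 399 lower against 192 and 426. It also ended the call of Nynrin (adjusted p = 0.0691). Same-numbered arrays did not deviate together over all genes (correlation of replicate differences 0.0205). With 1 difference per group this cannot exclude a shared batch. The numbers were not taken as pairs in the main fit.

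Signs turned for 16 single genes named beside the 5, none of them called with all arrays, and the cause was not tested. After quantile normalization the log2 difference was 0.06 for Ppp2r2d, -0.02 for Gfra1, -0.02 for Ncan, -0.04 for Opcml, -0.03 for Nfatc4 and -0.02 for Mir186, and after median centring it was -0.01 for Mrfap1. With each array left out, it ran from -0.17 to 0.02 for Wt1, -0.18 to 0.07 for Pecam1, -0.08 to 0.15 for Gfra1, -2.11 to 0.28 for Lcn5 and -0.04 to 0.02 for Ppp2r2d. It ran from -0.12 to 0.36 for Vcan, -0.03 to 0.18 for Ncan, -0.63 to 0.14 for Cbln4, -0.09 to 0.3 for Ntm, -0.07 to 0.19 for Opcml and -0.16 to 0.68 for Shisa7. Among chromosomal neighbours it ran from -0.02 to 0.04 for Mrfap1, -0.0033 to 0.13 for Nfatc4, -0.24 to 0.07 for Fpgt, -0.07 to 0.11 for Zranb2 and -0.12 to 0.27 for Mir186.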
